A study of Arabidopsis thaliana with 8 samples.

Results

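The genes described here make and regulate cuticular wax, the water-repelling lipid layer on the surface of plant shoots. They are 10 Arabidopsis thaliana genes chosen by locus code for their known role, namely CER1 (AT1G02205), CER2 (AT4G24510), CER3 (AT5G57800), CER4 (AT4G33790), CER6 (AT1G68530), KCS1 (AT1G01120), WSD1 (AT5G37300), MAH1 (AT1G57750), MYB96 (AT5G62470) and MYB94 (AT3G47600). All 10 were measured, among 27826 loci. Expression was read from total RNA of shoots on 8 Affymetrix arrays, 1 sample per array. Adult plants were 3 weeks old and juvenile plants 2 weeks old. The 4 groups of 2 arrays were adult submerged, adult control, juvenile submerged and juvenile control. Submerged plants were kept for 24 h in darkness under deionised water 25 cm deep, in tanks of 35 l, and control plants spent the same 24 h in darkness in empty tanks, so darkness was shared by all 4 groups and no group in the light was analysed here. Treatment began when the light phase of a 12 h photoperiod ended. Submerged samples have dark in their titles, and their treatment fields give submergence in darkness. No ecotype or mutation is named in the labels, and neither is whether the 2 arrays of a group came from separate plants or pools, so the p-values below measure the spread between these samples, which may be technical.

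Wax is made in epidermal cells. Fatty acids are activated to acyl-CoAs and lengthened in the endoplasmic reticulum by the elongase complex, whose 3-ketoacyl-CoA synthases (KCS enzymes such as CER6 and KCS1) carry out the condensing step and whose partner CER2 is needed to reach the longest chains. The very long chains then enter either the alkane-forming branch, in which CER1 and CER3 act together to make alkanes and the cytochrome P450 MAH1 hydroxylates them, or the alcohol-forming branch, in which the reductase CER4 makes primary alcohols and WSD1 joins alcohols to fatty acids as wax esters. MYB96 and MYB94 are transcription factors that activate wax genes and are known for their part in the response to drought.

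All values are log2 expression values as deposited, so a change of 1 is a 2-fold change of signal. Differences were tested with limma over all 27826 loci, and a gene is said to have risen or fallen, or to be called, at a Benjamini-Hochberg adjusted p under 0.05. Means are given ± SD (n = 2 arrays each) and changes with their standard error or 95% interval. As a check of the treatment labels, the log2 changes of the fermentation genes ADH1 and PDC1 with submergence were 5.06 and 7.37 in adult plants and 4.57 and 7.37 in juvenile plants. Pearson's r across loci between the 2 arrays of a group lay between 0.990 and 0.995. RBCS1A, the small subunit of the carbon-fixing enzyme of leaves, lay between 12.58 and 12.84 on all 8 arrays, on a scale that reached 13, while the mean of 3 root-hair markers (EXPA7, COBL9 and RHD6) lay between 2.81 and 3.04. The other leaf gene read, LHCB1.1, was dim in controls, with 2.92 and 2.92 in juvenile and 3.53 and 2.95 in adult plants. These control values lay near the root-hair mean, so the contrast between leaf and root-hair genes rests on RBCS1A alone. Batches could not be examined, since the labels name none.

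Submergence changed the same 6 of the 10 wax genes at both ages and in the same directions. CER1, CER3, CER4 and CER2 fell, KCS1 and MYB96 rose, and CER6, WSD1, MAH1 and MYB94 were not called at either age. The called share was 60% of the members at each age, beside 33.6% of all loci in adult plants and 34.2% in juvenile plants. By direction, 4 of 10 members were lower and 2 of 10 higher at each age. Among all loci 18.9% were lower and 14.6% higher in adult plants, and 18.8% were lower and 15.5% higher in juvenile plants. The median log2 change of the 10 members was -0.20 in adult plants and -0.32 in juvenile plants, against -0.02 and -0.05 for all loci. With single arrays left out the members' count lay between 3 and 6 of 10 at each age. The low end was reached without adult control replicate 2 in adult plants and without juvenile control replicate 1 in juvenile plants. In both of these fits a smaller share of all loci was called as well. The low counts are therefore not comparable with the shares of all loci given above, which come from the full fit. Centring each array on its median moved the median juvenile change of all loci to -0.18 and left the 6 called members and their directions in place, with MYB94 as a seventh call in juvenile plants. As deposited, submerged and control arrays of the same age overlapped for 3 of the 10 members in adult plants and 2 of 10 in juvenile plants. Among all loci 66.2% showed no such overlap in adult plants and 67.3% in juvenile plants.

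**Figure D1:**
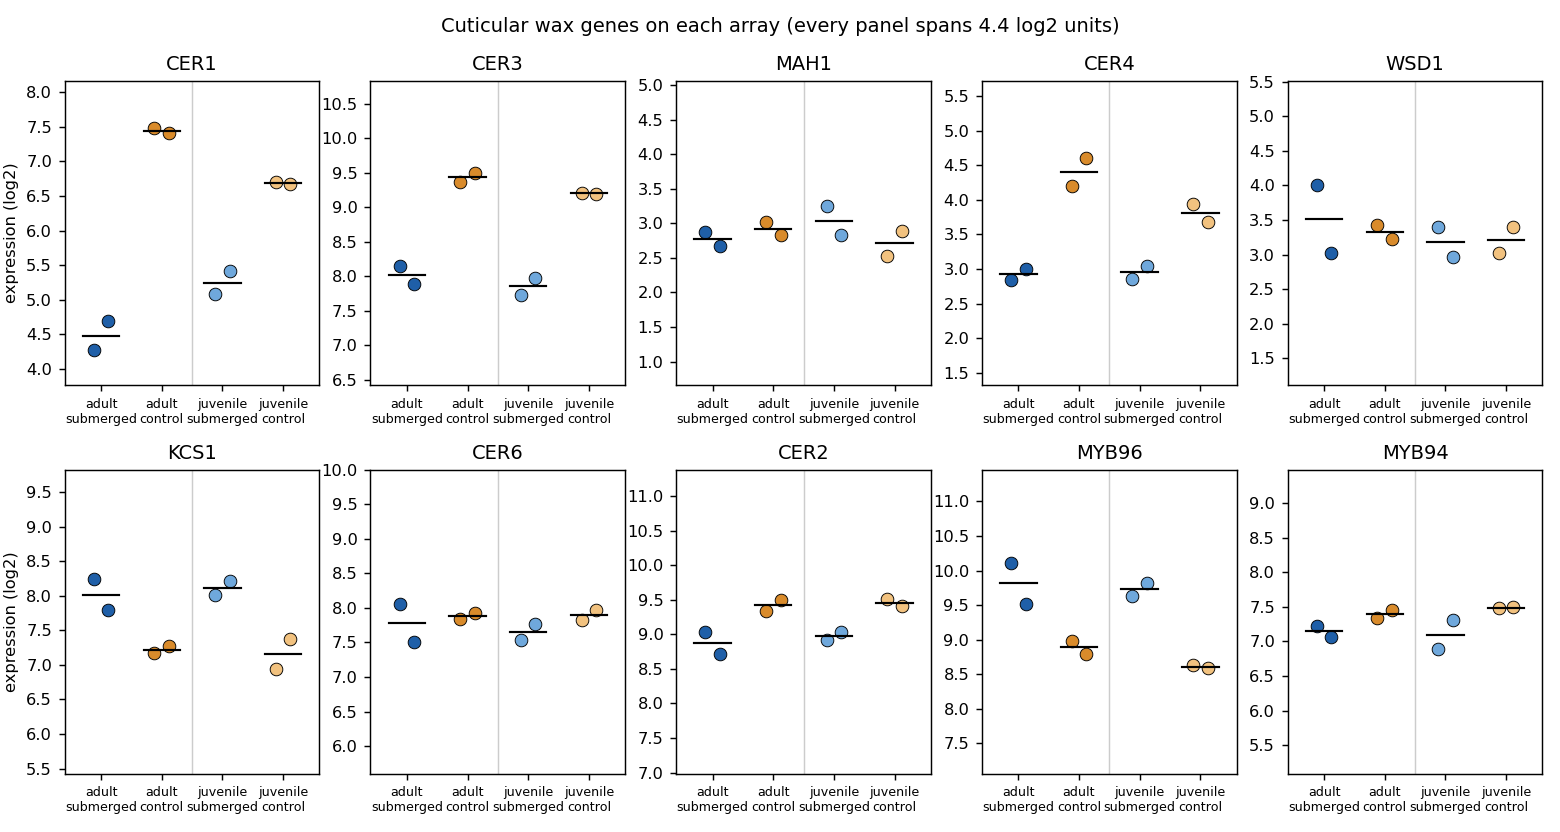
Log2 expression of each of the 10 wax genes on the 8 arrays, with a panel per gene, groups on the horizontal axis and log2 value on the vertical axis. Points are arrays, bars are means of 2 arrays, and every panel spans the same width of scale. CER1, CER3 and CER4 sit lower in both submerged groups than in both control groups, and KCS1 and MYB96 sit higher.

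The alkane-forming branch held the largest change among the 10 genes. CER1, the alkane-forming partner of CER3, had 4.27 and 4.69 in submerged adult shoots, against 7.48 and 7.41 in adult controls. In juvenile shoots it had 5.08 and 5.41 when submerged and 6.70 and 6.67 in controls. Every submerged array lay below every control array, and the 4 groups did not overlap: adult controls were highest, then juvenile controls, then submerged juvenile shoots, with submerged adult shoots lowest. The adult change was -2.97 (SE 0.18, 95% interval -3.39 to -2.55, limma adjusted p = 4.7e-05), a 7.82-fold lower signal. In juvenile plants the change was -1.44 (SE 0.18, -1.86 to -1.02, limma adjusted p = 0.000864), a 2.71-fold lower signal. Counting CER1 itself, 114 of the 27826 loci fell at least as far as CER1 in adult plants and 1037 did so in juvenile plants.

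CER3, which acts with CER1 in alkane formation, had 8.15 and 7.89 in submerged adult shoots, against 9.36 and 9.50 in adult controls. Juvenile shoots gave 7.73 and 7.98 when submerged and 9.20 and 9.20 in controls. The submerged arrays of the 2 ages overlapped with each other and lay wholly below the controls. The fall was nearly the same at both ages, at -1.41 in adult plants (SE 0.15, -1.75 to -1.06, limma adjusted p = 0.000409, 2.66-fold lower) and -1.35 in juvenile plants (SE 0.15, -1.69 to -1.0, limma adjusted p = 0.00047, 2.54-fold lower). CER1 and CER3 kept these calls at both ages under every alternative that gave them a value.

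MAH1 (CYP96A15 in the gene table) works downstream of CER1 and CER3, converting alkanes to mid-chain alcohols and ketones. Its values were 2.87 and 2.67 in submerged adult shoots, against 3.02 and 2.83 in adult controls, and 3.25 and 2.83 in submerged juvenile shoots, against 2.53 and 2.89 in juvenile controls. Submerged and control arrays overlapped at both ages. The change was -0.15 in adult plants (95% interval -0.61 to 0.30, limma adjusted p = 0.598) and 0.33 in juvenile plants (-0.13 to 0.79, limma adjusted p = 0.248). A change beyond about 0.8 in either direction lay outside both intervals. Changes of dim probes can be compressed, and the background of these arrays was not analysed here.

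In the alcohol-forming branch the reductase gene fell and the wax ester synthase gene was not called. CER4, which makes primary alcohols from very-long-chain acyl-CoAs, had 2.84 and 3.00 in submerged adult shoots, against 4.20 and 4.60 in adult controls. The juvenile values were 2.85 and 3.05 when submerged and 3.94 and 3.68 in controls. The 2 submerged groups overlapped near 3, below all 4 control arrays. The adult change was -1.48 (SE 0.18, -1.90 to -1.06, limma adjusted p = 0.00078, 2.79-fold lower) and the juvenile change was -0.86 (SE 0.18, -1.28 to -0.44, limma adjusted p = 0.00879, 1.81-fold lower). CER4 belonged to the dimmer 50% of loci, and its submerged values were not shown to lie above background, so these folds may understate the fall. The juvenile call was lost without juvenile submerged replicate 1 (-0.76, limma adjusted p = 0.0533) or juvenile control replicate 1 (-0.73, limma adjusted p = 0.0621).

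WSD1, the wax ester synthase, had the widest replicate spread of the members. It had 4.01 and 3.02 in submerged adult shoots, against 3.43 and 3.23 in adult controls. In juvenile shoots the values were 3.40 and 2.97 when submerged and 3.02 and 3.40 in controls. The groups overlapped at both ages. Its changes of 0.19 in adult plants (95% interval -0.58 to 0.96, limma adjusted p = 0.712) and -0.03 in juvenile plants (-0.80 to 0.75, limma adjusted p = 0.964) were smaller than the difference of 0.99 between the 2 submerged adult arrays, and leaving out single arrays turned their sign.

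The elongation genes did not move together: KCS1 rose, CER2 fell slightly and CER6 was not called. KCS1, a condensing enzyme of the elongase, had 8.24 and 7.79 in submerged adult shoots, against 7.17 and 7.27 in adult controls. Juvenile shoots had 8.01 and 8.21 when submerged and 6.94 and 7.37 in controls, again with no overlap between treatments. The rise was 0.80 in adult plants (SE 0.20, 0.32 to 1.28, limma adjusted p = 0.0218, 1.74-fold) and 0.96 in juvenile plants (SE 0.20, 0.47 to 1.44, limma adjusted p = 0.0102, 1.94-fold). Both calls depended on single arrays. The adult adjusted p was 0.107 without adult submerged replicate 1, 0.0995 without adult control replicate 1 and 0.0727 without adult control replicate 2. The juvenile one was 0.0525 without juvenile submerged replicate 2 and 0.0646 without juvenile control replicate 1.

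CER6 (KCS6 in the gene table), the main condensing enzyme of shoot wax, had 8.05 and 7.51 in submerged adult shoots, against 7.84 and 7.93 in adult controls. It had 7.53 and 7.77 in submerged juvenile shoots, against 7.82 and 7.96 in juvenile controls. The adult groups overlapped, and the juvenile submerged arrays lay just below their controls. Neither change was called, at -0.11 in adult plants (95% interval -0.56 to 0.35, limma adjusted p = 0.727) and -0.24 in juvenile plants (-0.70 to 0.21, limma adjusted p = 0.392).

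CER2, the elongase partner needed for the longest chains, had 9.04 and 8.71 in submerged adult shoots, against 9.34 and 9.50 in adult controls. Its juvenile values were 8.92 and 9.04 when submerged and 9.51 and 9.40 in controls. The groups did not overlap at either age, as held for most loci, and the gap was small. The fall was -0.54 in adult plants (SE 0.15, -0.89 to -0.19, limma adjusted p = 0.0278, 1.46-fold lower) and -0.47 in juvenile plants (SE 0.15, -0.82 to -0.12, limma adjusted p = 0.0454, 1.39-fold lower). Of the 6 called genes this one held least well. The adult adjusted p was 0.125 without adult submerged replicate 2, 0.0624 without adult control replicate 1 and 0.141 without adult control replicate 2. In juvenile plants it reached between 0.0650 and 0.190 when any juvenile array or either adult control array was left out.

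The 2 transcription factors differed in their response. MYB96 had 10.10 and 9.52 in submerged adult shoots, against 8.98 and 8.79 in adult controls, and 9.63 and 9.82 in submerged juvenile shoots, against 8.63 and 8.59 in juvenile controls. All 4 submerged arrays lay above all 4 controls. The rise was 0.93 in adult plants (SE 0.20, 0.45 to 1.40, limma adjusted p = 0.0110, 1.90-fold) and 1.12 in juvenile plants (SE 0.20, 0.64 to 1.59, limma adjusted p = 0.00472, 2.17-fold). Without adult control replicate 2 the adult rise was 0.83 and lost its call (limma adjusted p = 0.0680), while the juvenile call remained under all alternatives.

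MYB94 had 7.23 and 7.07 in submerged adult shoots, against 7.34 and 7.46 in adult controls. Juvenile shoots had 6.89 and 7.31 when submerged and 7.49 and 7.5 in controls. All submerged arrays lay below the controls of their age, but neither difference was called. The change was -0.25 in adult plants (95% interval -0.63 to 0.13, limma adjusted p = 0.285) and -0.39 in juvenile plants (-0.77 to -0.01, limma adjusted p = 0.107). In juvenile plants it was called without juvenile submerged replicate 2 (-0.60, limma adjusted p = 0.0240) and after centring each array on its median (-0.52, limma adjusted p = 0.0415). The directions of MYB96 and MYB94 were thus opposite in every submerged group, and only that of MYB96 passed the test as deposited.

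**Figure D2:**
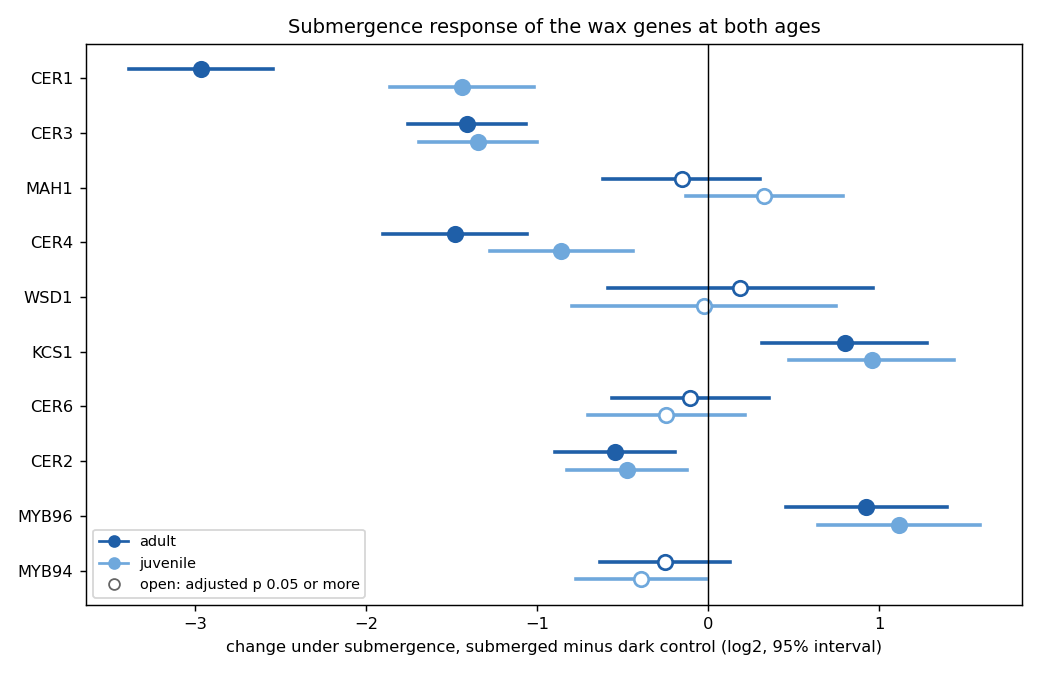
Log2 change with submergence of the 10 wax genes at each age, with adult plants above juvenile plants for each gene, points for the estimates, bars for 95% intervals, filled points for called changes and open points for changes not called. The intervals of CER1 at the 2 ages do not overlap, from -3.39 to -2.55 in adult plants and from -1.86 to -1.02 in juvenile plants. Those of CER4 overlap only in part, from -1.28 to -1.06, and those of CER3, KCS1, CER2 and MYB96 over most of their length.

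Genes reported to be direct targets of the 2 factors were counted as well, in groupings made after the values had been seen. Of the 5 reported MYB96 targets among the measured genes (KCS1, KCS2, CER6, KCR1 and CER3), 1 rose, KCS1, and 1 fell, CER3, at each age. Of the 5 reported MYB94 targets (WSD1, KCS2, CER2, CER4 and CER10), 2 fell at each age, CER2 and CER4, and 3 were not called. The called share of 40% in each grouping was near the 33.6% and 34.2% of all loci.

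Epidermal marker genes were lower in the same submerged samples. The mean log2 value of ATML1, PDF1 and PDF2, genes of the epidermal layer, lay between 7.30 and 7.69 in submerged adult arrays, against 8.39 to 8.51 in adult controls, and between 7.84 and 8.08 in submerged juvenile arrays, against 8.70 to 8.75 in juvenile controls. PDF1 fell, with changes of -1.76 in adult plants (limma adjusted p = 0.00656) and -1.48 in juvenile plants (limma adjusted p = 0.0133). ATML1 fell by 0.77 in adult plants (limma adjusted p = 0.0249) and was at -0.62 in juvenile plants (limma adjusted p = 0.0530). PDF2 was at -0.33 and -0.19 and was not called. In whole shoots, fewer epidermal cells and less RNA per epidermal cell cannot be told apart, and the part of these markers in the fall of CER1, CER3, CER4 and CER2 was not tested. The values have no true zero, so no marker could be called absent. KCS1 and MYB96 rose in these same arrays, and the part of the markers in their change was not tested either.

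Markers of specialised epidermal cells were read beside these. Of 2 guard cell markers, FAMA fell, at -0.76 in adult and -0.94 in juvenile plants, and MYB60 was not called, at 0.13 and -0.43. Their mean lay between 6.55 and 6.59 in submerged adult arrays, against 6.87 to 6.90 in adult controls, and between 6.22 and 6.69 in submerged juvenile arrays, against 7.04 to 7.24 in juvenile controls. Of 2 trichome markers, GL1 fell, at -0.96 in adult and -1.28 in juvenile plants, and GL2 was not called, at -0.33 and 0.31. Among the remaining tissue markers, the 2 mesophyll genes differed: RBCS1A was not called, at -0.16 in adult and -0.14 in juvenile plants, and LHCB1.1, with dim values of 2.92 and 2.92 in juvenile controls, rose by 1.22 in juvenile plants and was at 0.46, not called, in adult plants. The phloem gene SUC2 fell by 0.43 in juvenile plants and was at -0.30, not called, in adult plants.

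**Figure D3:**
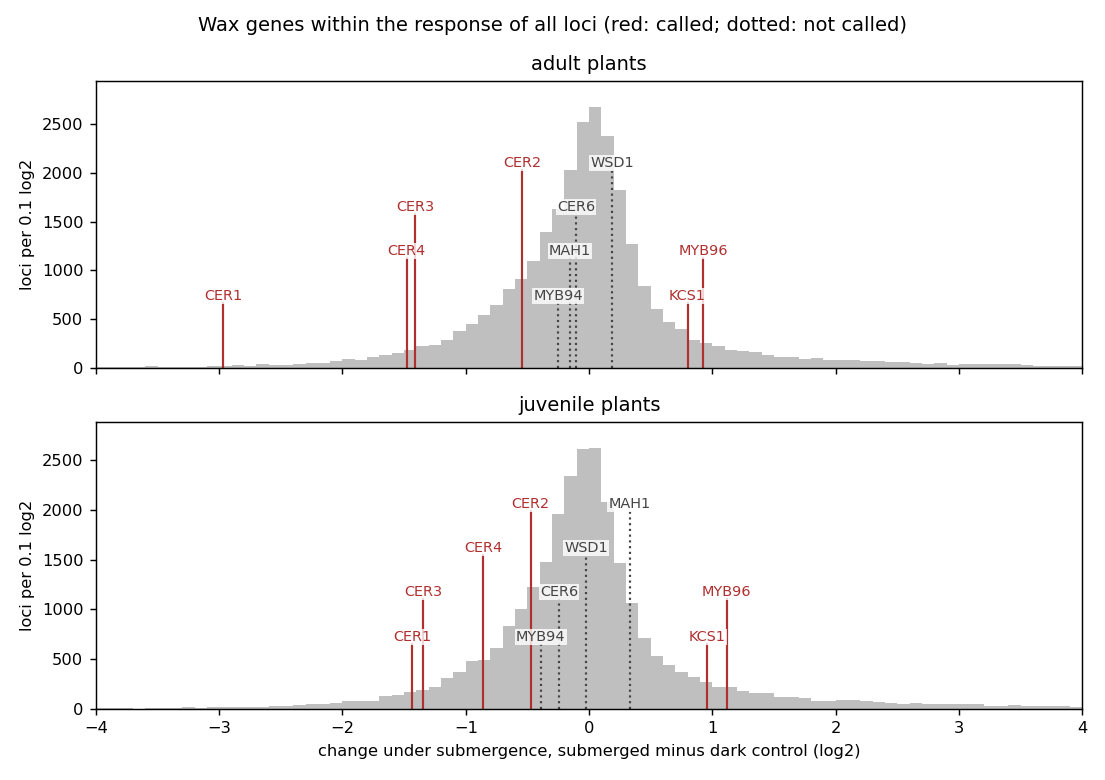
Distribution of the log2 changes of all 27826 loci with submergence in bins of 0.1, adult plants above and juvenile plants below, with number of loci on the vertical axis. Solid red lines mark called wax genes and dotted dark grey lines those not called. CER1 lies far out in the left tail in adult plants, where 114 loci fell at least as far, and CER3 and CER4 lie in its upper part, with 1205 and 1071 loci falling at least as far.

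The remaining falls and rises lay within ranges that many loci reached. CER3 was matched or exceeded in its fall by 1205 loci in adult plants and 1201 in juvenile plants, and CER4 by 1071 and 2867, each count including the gene itself. The rise of MYB96 was matched or exceeded by 2652 loci in adult plants and 2491 in juvenile plants, and that of KCS1 by 3016 and 2880.

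The effect of age was compared within each treatment, and no wax gene was called. Between adult and juvenile controls the changes of the 10 members ran from -0.09 to 0.76 with a median of 0.17, and 0.0539% of all loci were called, which is 15 loci. CER1 was 0.76 higher in adult controls (SE 0.18, 95% interval 0.34 to 1.19, unadjusted p = 0.0036 and adjusted p = 0.220 by limma), with both adult arrays above both juvenile arrays. CER4 was 0.59 higher in adult controls (unadjusted p = 0.0124 and adjusted p = 0.329 by limma), also without overlap. These 2 were the members with an unadjusted p under 0.05, as were 2816 of all loci. The arrays of 5 members did not overlap between the ages, 4 with adult controls above (CER1, CER3, CER4 and MYB96) and 1 with adult controls below (MYB94), beside 46.1% of all loci without overlap.

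Between submerged plants of the 2 ages the members' differences ran from -0.77 to 0.33 with a median of 0.01, and 0.126% of all loci, or 35, were called. CER1 was 0.77 lower in submerged adult shoots than in submerged juvenile shoots (a difference of -0.77, SE 0.18, 95% interval -1.19 to -0.34, unadjusted p = 0.00357 and adjusted p = 0.173 by limma). It was the 1 member without overlap and the 1 member with an unadjusted p under 0.05, as were 3282 of all loci, and 39.1% of all loci showed no overlap. CER4 was at -0.03 here (limma adjusted p = 0.969).

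Whether the submergence response depended on age was tested as the adult response minus the juvenile response. For CER1 this difference was -1.53 (SE 0.25, 95% interval -2.12 to -0.93, unadjusted p = 0.000504 and adjusted p = 0.276 by limma). Its adult fall was thus larger than its juvenile fall by more than the spread between these arrays, but it did not pass the adjustment over all loci. In this comparison 0 of the 27826 loci were called, which is 0%, the smallest limma adjusted p was 0.143, and 2030 loci had an unadjusted p under 0.05. Over the alternatives the CER1 adjusted p lay between 0.184 and 0.678, and the estimate between -1.74 and -1.32 when single arrays were left out. CER4 had the next largest difference, -0.62 (SE 0.25, unadjusted p = 0.0423 and adjusted p = 0.666 by limma). Its submerged means were alike and dim at both ages, 2.92 in adult and 2.95 in juvenile plants, so a lower limit on its signal and a difference in response cannot be told apart. The other 8 members lay between -0.48 for MAH1 and 0.21 for WSD1.

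Replicates of submerged adult plants lay further apart for the wax genes than for loci in general. The median absolute difference between the 2 submerged adult arrays was 0.38 over the 10 members, against 0.18 over all loci, and replicate 1 was the higher in 8 of the 10, against 51.7% of all loci. Between the 2 submerged juvenile arrays the median difference was 0.24 over the members and 0.20 over all loci, with replicate 1 higher in 2 of 10. In controls the members differed by 0.15 in adult plants and 0.12 in juvenile plants, beside 0.15 and 0.14 over all loci. WSD1 was the member with the widest gap in both submerged groups, at 0.99 in adult and 0.43 in juvenile shoots. CER4 in adult controls and KCS1 in juvenile controls were the widest there, at 0.40 and 0.43.

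Genes with the most similar pattern over the 8 arrays were found by the root mean square difference after each gene was centred on its own mean. For CER1 the closest locus was SQE6 (AT5G24160), a squalene epoxidase gene, at 0.227, with changes of -2.89 in adult and -1.03 in juvenile plants, and 0 loci lay within 0.2. For CER3 it was the tetraspanin gene TET7 (AT4G28050) at 0.046, with changes of -1.47 and -1.43 and 319 loci within 0.2. For CER4 it was the calmodulin-like gene CML11 (AT3G22930) at 0.084, with changes of -1.46 and -0.86 and 61 loci within 0.2. CER1 was thus the member with no locus within this fixed limit, while CER3 and CER4 had many. The difference is in log2 units and can be larger for genes that vary more. CER1 had the largest SD over the 8 arrays among the members, 1.17, against 0.70 for CER3 and 0.64 for CER4. Its lack of a match within 0.2 is therefore not a measure of how unusual its pattern was.

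MYB96 was closest to CAM9 (AT3G51920), a calmodulin gene, at 0.070, with changes of 0.95 and 1.11, and KCS1 to AT5G48780 at 0.089, with changes of 0.90 and 1.01. Within 0.2 lay 284 loci for MYB96 and 212 for KCS1, so these matches were not particular to the named loci. For the flatter genes closeness carries little information, because 3105 loci lay within 0.2 of CER2, 4138 of CER6, 4661 of MYB94 and 2061 of MAH1. The closest loci of these 4 were UTR5 (AT3G46180), ABCG32 (AT2G26910), AT5G23110 and AT2G18320, at 0.045, 0.072, 0.050 and 0.053. WSD1 was closest to AT3G58320, at 0.122. Among the members themselves the closest pair of genes that both changed was KCS1 and MYB96 at 0.189, followed by CER3 and CER4 at 0.228. KCS1 was thus 1 of the 284 loci within 0.2 of MYB96.

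The rest of the cuticle pathway was read from 43 further genes, of which 17 act in fatty acid activation and elongation or beside CER1, 4 in export, 11 in regulation and 11 in the making of cutin, the polyester that wax is laid on. In adult plants 17 of the 43 were called (39.5%), 7 higher and 10 lower, and in juvenile plants 15 were called (34.9%), 7 higher and 8 lower. Over the 2 ages 13 were called at both and in 1 direction, 6 higher and 7 lower, while 4 were called in adult plants alone, 2 in juvenile plants alone and 24 at neither age. These shares lay near the 33.6% and 34.2% of all loci. Medians were -0.16 in adult and -0.11 in juvenile plants. With each array centred on its median the split was 10 higher and 9 lower in adult plants and 4 higher and 13 lower in juvenile plants, so the direction that held more genes changed with the scaling in adult plants, while lower calls were the more numerous in juvenile plants both ways. Leaving out single arrays lowered the adult count without adult submerged replicate 1 and, furthest, without either adult control array. The juvenile count fell furthest without juvenile submerged replicate 1 or without either juvenile control array. In each of these fits a smaller share of all loci was called as well.

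**Figure D4:**
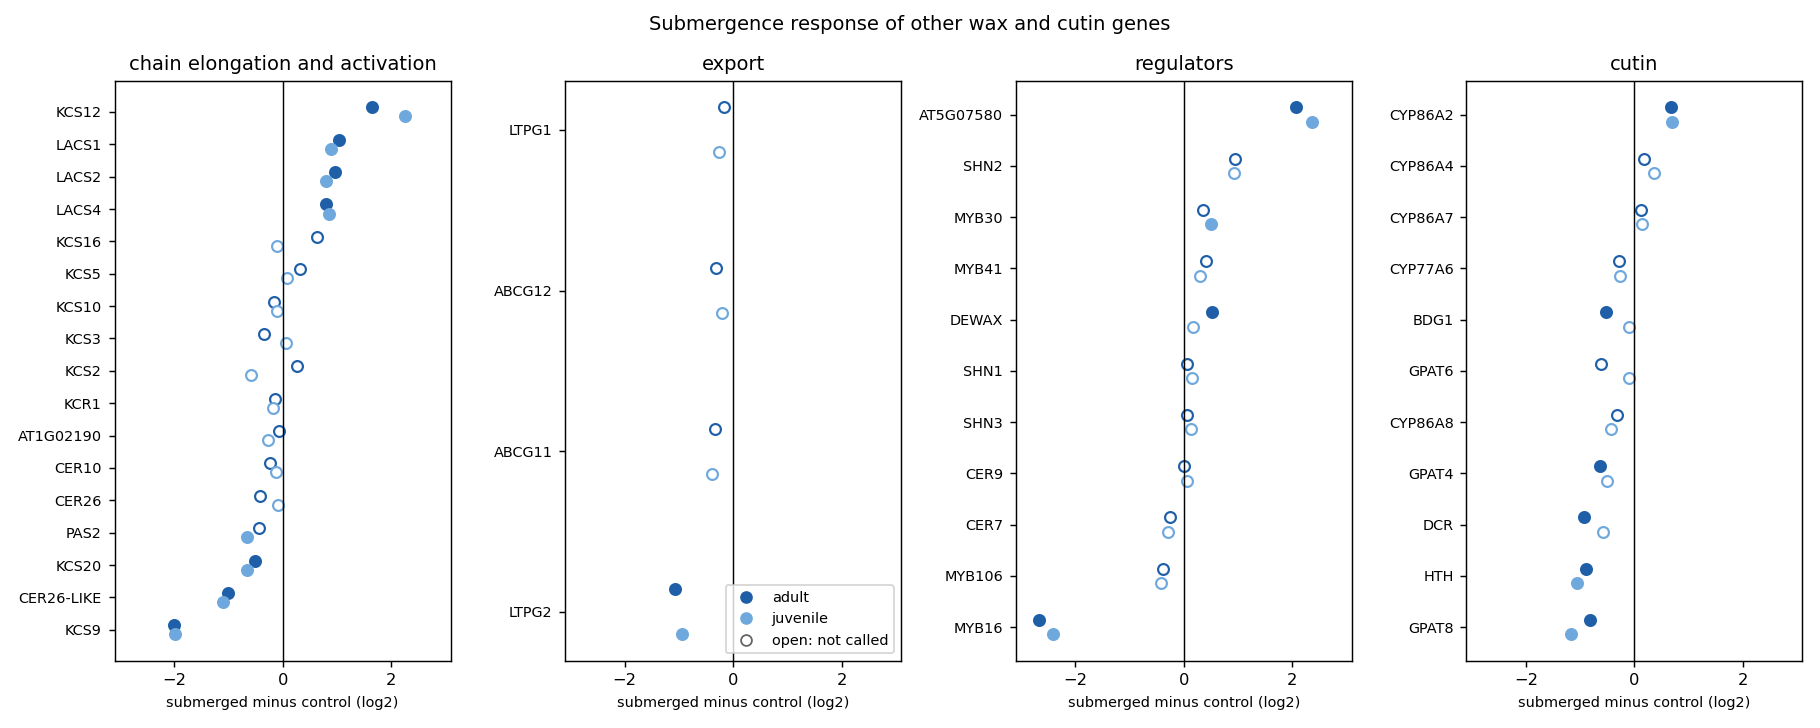
Log2 changes with submergence of the 43 other wax and cutin genes in 4 panels (activation and elongation, export, regulators, cutin), with dark blue points for adult plants, light blue points for juvenile plants and open points for changes not called. AT5G07580 and KCS12 rose most and MYB16 and KCS9 fell most, and the 2 ages lie close together for most genes.

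Activation and elongation genes moved both ways. Of the 17, 7 were called in adult plants, 4 higher and 3 lower, and 8 in juvenile plants, 4 higher and 4 lower, with medians of -0.15 and -0.11. The called shares were 41.2% and 47.1%, beside 33.6% of all loci in adult plants and 34.2% in juvenile plants. KCS12, a condensing enzyme of the KCS family, had 11.23 and 10.80 in submerged adult shoots, against 9.36 and 9.35 in adult controls, and 10.64 and 10.92 in submerged juvenile shoots, against 8.45 and 8.61 in juvenile controls. It rose by 1.66 in adult plants (limma adjusted p = 0.000464) and 2.26 in juvenile plants (limma adjusted p = 0.00011). KCS9, another family member, had 6.73 and 7.03 in submerged adult shoots, against 8.82 and 8.93 in adult controls, and 6.89 and 6.95 in submerged juvenile shoots, against 8.85 and 8.94 in juvenile controls. Its changes of -2.00 in adult plants (limma adjusted p = 7.4e-05) and -1.98 in juvenile plants (limma adjusted p = 6.5e-05) were thus about as large as the rise of KCS12 and of opposite sign.

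Over the 10 measured KCS genes of these lists, CER6 and KCS1 included, 2 rose at each age (KCS1 and KCS12), 2 fell (KCS9 and KCS20) and 6 were not called, a grouping made after the values had been seen. The called share of 40% was near the 33.6% and 34.2% of all loci in adult and juvenile plants. In adult plants KCS20 lost its call after either rescaling of the arrays, and KCS16 was called higher after median centring. The 3 long-chain acyl-CoA synthetase genes of these lists, LACS1, LACS2 and LACS4, activate fatty acids and were grouped in the same way. All 3 rose at both ages, beside 14.6% of all loci called higher in adult plants and 15.5% in juvenile plants. LACS1 had 9.17 and 9.29 in submerged adult shoots, against 8.09 and 8.29 in adult controls, and 9.15 and 9.46 in submerged juvenile shoots, against 8.43 and 8.38 in juvenile controls, and it rose by 1.04 (limma adjusted p = 0.00164) and 0.90 (limma adjusted p = 0.00313). LACS2 had 7.62 and 7.10 in submerged adult shoots, against 6.18 and 6.62 in adult controls, and 7.50 and 7.68 in submerged juvenile shoots, against 6.87 and 6.69 in juvenile controls, and it rose by 0.96 (limma adjusted p = 0.0140) and 0.81 (limma adjusted p = 0.0275). LACS4 rose by 0.80 and 0.85. After median centring LACS2 was no longer called in juvenile plants, and the directions of all 3 stayed upward.

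AT3G23840, a relative of CER2 for which the gene table gives the synonym CER26-LIKE, fell at both ages. It had 5.33 and 5.55 in submerged adult shoots, against 6.30 and 6.60 in adult controls, and 5.57 and 5.0 in submerged juvenile shoots, against 6.57 and 6.18 in juvenile controls. Its changes were -1.02 (limma adjusted p = 0.0143) and -1.09 (limma adjusted p = 0.0103). AT1G02190, which has 0 protein-coding genes between it and CER1 in the gene table, was not called, at -0.07 in adult and -0.27 in juvenile plants. PAS2, the dehydratase of the elongase, fell by 0.65 in juvenile plants and was at -0.44, not called, in adult plants.

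Of the 4 export genes 1 was called at each age, or 25%, beside 33.6% of all loci in adult plants and 34.2% in juvenile plants. The called gene was LTPG2, a lipid transfer protein anchored at the cell surface. LTPG2 had 6.85 and 5.99 in submerged adult shoots, against 7.32 and 7.67 in adult controls. In juvenile shoots it had 6.48 and 6.78 when submerged and 7.69 and 7.48 in controls. It fell, with changes of -1.08 in adult plants (limma adjusted p = 0.0249) and -0.95 in juvenile plants (limma adjusted p = 0.0392). The medians over the 4 export genes were -0.32 in adult and -0.33 in juvenile plants, against -0.02 and -0.05 for all loci. All 4 had negative estimates at both ages. After median centring ABCG11 was also called lower in juvenile plants.

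Of the 11 other regulators 3 were called at each age, 2 higher and 1 lower, with medians of 0.07 in adult and 0.16 in juvenile plants. The called share of 27.3% lay below the 33.6% of all loci in adult plants and 34.2% in juvenile plants. MYB16, a regulator of epidermal cell shape and cuticle genes, had 4.84 and 5.62 in submerged adult shoots, against 8.03 and 7.78 in adult controls, and 5.86 and 6.04 in submerged juvenile shoots, against 8.42 and 8.31 in juvenile controls. It fell, with changes of -2.68 in adult plants (limma adjusted p = 0.000252, 6.41-fold lower) and -2.42 in juvenile plants (limma adjusted p = 0.000368, 5.34-fold lower). AT5G07580, to which the gene table gives no symbol, had 10.63 and 10.64 in submerged adult shoots, against 8.52 and 8.62 in adult controls, and 10.75 and 10.69 in submerged juvenile shoots, against 8.42 and 8.27 in juvenile controls. It rose by 2.07 (limma adjusted p = 3.6e-05) and 2.37 (limma adjusted p = 1.8e-05).

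Called in 1 age each were DEWAX, a repressor of wax genes known for its activity in darkness, and MYB30, an activator of elongation genes. DEWAX rose by 0.51 in adult plants (limma adjusted p = 0.0446) and was at 0.17 in juvenile plants (limma adjusted p = 0.485). MYB30 rose by 0.51 in juvenile plants and was at 0.36, not called, in adult plants. DEWAX lost its adult call after quantile normalization, and MYB30 lost its juvenile call after median centring and was called in adult plants after either rescaling. With centred arrays the regulators split into 4 higher and 1 lower in adult plants and 1 higher and 3 lower in juvenile plants. Neither response was shown to differ between the ages, since 0 loci were called in that comparison.

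Cutin genes were called lower more often than higher, 5 against 1 of 11 in adult plants and 2 against 1 of 11 in juvenile plants, with medians of -0.53 and -0.27. Among all loci 18.9% were called lower and 14.6% higher in adult plants, and 18.8% and 15.5% in juvenile plants, so the juvenile share of cutin genes called lower was near that of all loci. The adult counts stayed at 5 and 1 after both rescalings, and the juvenile ones became 4 and 0 after median centring and 4 and 1 after quantile normalization. The acyltransferase gene GPAT8 fell, at -0.81 in adult and -1.17 in juvenile plants, and HTH fell, at -0.89 and -1.07. GPAT4, DCR and BDG1 fell in adult plants, at -0.63, -0.93 and -0.53, and were at -0.51, -0.58 and -0.09, not called, in juvenile plants. CYP86A2, a fatty acid hydroxylase, was the 1 riser, by 0.67 in adult and 0.70 in juvenile plants, the juvenile call being lost after median centring. These falls occurred in the same arrays as the lower epidermal markers given above, whose part was not tested. For age within each treatment and for the interaction 0 of the 43 pathway genes were called by limma, and 3 were at an unadjusted p under 0.05 for age in controls, 6 for age in submerged plants and 4 for the interaction.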

How the data were processed

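RNA of 8 shoot samples (4 groups of 2) was hybridised to 8 Affymetrix arrays. The deposited table holds 1 log2 expression value per locus and array, from 1.86 to 13, for which RMA and limma are named, per the submitters' processing notes. Array model, probe-to-locus assignment and genome build are not given in the sources used here, and probe-level signals were not used here. Array medians lay between 6.13 and 6.30. Groups were taken from the treatment and age fields.

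Values were used as deposited. With limma 3.58.1 in R 4.3.3 (lmFit, eBayes), group means were estimated for 27826 loci in 1 model over the 8 arrays. It had 4 residual degrees of freedom, to which the prior added 2.99. The 5 contrasts were tested two-sided and adjusted by the Benjamini-Hochberg method over all loci, with calls at 0.05. With 2 arrays a group, exact permutation of 1 gene reaches no p below 0.333. The code was tested on simulated data. Symbols came from a RefSeq gene table (27241 of 27826 loci matched). Precision is limited by having 2 arrays per group.

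The members and lists were chosen with earlier results of these data known. Named were all members, the closest locus to each, among called pathway genes the 4 that rose and the 4 that fell most, any called for age, and marker genes. GPAT8, HTH, GPAT4, DCR, BDG1, CYP86A2, LACS4, DEWAX, MYB30, PAS2, KCS16, KCS20 and AT1G02190 were named after their values were seen. Alternatives were 2 rescalings, another variance prior, a filter on dim loci, a fit of 4 arrays, a replicate block and leaving out each array. Plots used Python 3.11.15 with matplotlib 3.10.9.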

Additional observations from a re-analysis of the deposited data

Results flagged for a closer look

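The age difference of CER1 ran in opposite directions in the 2 treatments. Both submerged adult arrays lay below both submerged juvenile arrays, a difference of -0.77, and both adult control arrays lay above both juvenile control arrays, a difference of 0.76. The difference between the 2 was -1.53 (SE 0.25, limma unadjusted p = 0.000504, adjusted p = 0.276), and it did not pass the adjustment over all loci. AT5G07580 also crossed without overlap, with -0.08 in submerged plants, 0.22 in controls and -0.30 between them (limma unadjusted p = 0.104, adjusted p = 0.764). Crossings were sought only in the members and in the 4 pathway genes that rose and the 4 that fell most. Among all loci 46.1% did not overlap between the ages in controls and 39.1% in submerged plants. The share of all loci that cross was not counted. Groups of 2 arrays were too small for a check for single outlying samples.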

How the results depend on the processing

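Each result was recomputed under 14 alternatives, 8 of which left out 1 array. Of 348 values for single genes, 320 kept their direction and their side of the threshold, 19 lost a call, 2 gained one (MYB94 in juvenile plants) and 7 changed sign, 0 of them called values. The sign changes were CER4 between submerged adult and juvenile plants (0.076 after median centring, and -0.13 to 0.069 with single arrays left out), WSD1 in adult plants (-0.31 to 0.68) and juvenile plants (-0.24 to 0.19), and CER6 in adult plants (-0.38 to 0.17). With single arrays left out, called members ranged from 3 to 6 in adult and 3 to 6 in juvenile plants, and pathway genes from 10 to 18 in adult and 9 to 15 in juvenile plants, where fewer arrays leave fewer degrees of freedom. With an intensity trend and robust prior, 1 pathway gene was called for age in controls, KCS12 (0.83 higher in adult controls, adjusted p = 0.0395), and the cause was not tested. Median centring gave 6 members in adult and 7 in juvenile plants and lowered the share of higher calls among all juvenile calls to 34.3%, against 45.2% as deposited. With the replicate number as a block, 6 members were called in adult and 5 in juvenile plants (CER2 at an adjusted p of 0.0694), and 15 and 13 pathway genes. Same-numbered samples correlated between -0.11 and 0.05, so the numbers were not taken to pair samples. Without the dimmest 50% of loci, CER1, CER4, WSD1 and MAH1 were not tested and 4 of the other 6 members were called at each age. Among the loci kept in that setting, 55.9% were called in adult plants and 56.7% in juvenile plants. A fit of 4 arrays could not give the interaction. The small number of arrays limits what can be called.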
